A study of Caenorhabditis elegans with 5 samples.

Results

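Messenger RNA was compared between 3 strains that lack histone methyltransferases (HMTs) and 2 strains that keep them, to find the gene models for which all 3 HMT mutants lay on the same side of both other libraries. The HMT mutants were *set-32(ok1457)*, the double mutant *met-2(n4256);set-25(ok5021)* and the triple mutant, which joins *ok1457* to the alleles of the double mutant. The other side held *hrde-1(tm1200)*, which carries none of these HMT mutations, and wild type (WT, strain N2). The animals were whole synchronized young adult *C. elegans* at 19 °C with OP50 bacteria as food, and poly(A) RNA of each genotype was sequenced in 1 library. A model was kept when it averaged at least 1 RPKM (reads per kilobase of model, scaled to library depth) over the 5 libraries. The measure was the gap, the difference in log2(RPKM + 1) between the nearest HMT mutant and the nearest of *hrde-1* and WT, so that a gap of 1 is a 2-fold difference on that scale. Of 20911 models in the table, 13613 were measured, and 3450 of these were members. A further 561 models met the rule on direction but averaged under 1 RPKM.

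Methyl groups on lysine 9 of histone H3 are a mark of heterochromatin. The paper counts SET-32, like MET-2 and SET-25, among the HMTs that add them in *C. elegans*. It reports that adults without SET-32 alone had less of the trimethyl form across the genome, targets of germline nuclear RNAi included. Genome-wide this loss was smaller than in the double or the triple mutant. HRDE-1, a nuclear Argonaute of the germline, is guided by small RNAs to nascent transcripts. The *hrde-1* strain is thus a mutant of germline nuclear RNAi in which these HMT genes are intact. Whole adults contain a large germline besides intestine, hypodermis, muscle and neurons. In RNA from whole animals, fewer cells of a type and less RNA per cell cannot be told apart.

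The deposited values imply 1.80 to 2.89 M reads per library, with the fewest in *hrde-1* and the most in the triple mutant. Among the 13613 measured models, the 3 HMT mutants had 181, 167 and 113 at 0 (*set-32*, double, triple), against 365 in *hrde-1* and 204 in WT. *met-2* had 34.4, 12.6 and 9.45 RPKM in *set-32*, the double and the triple mutant, against 42.5 RPKM in *hrde-1* and 47.3 RPKM in WT, so that its 2 lowest libraries were those that carry its mutation. *set-25* had 17.3, 10.3 and 8.64 RPKM in *set-32*, the double and the triple mutant, against 19.2 in *hrde-1* and 17.5 in WT. *set-32* had 8.15, 12.3 and 5.65 RPKM in these mutants, against 14.5 in *hrde-1* and 12.5 in WT. *hrde-1* had 177.9, 233.9 and 204.0 RPKM in the HMT mutants, against 159.7 in its own mutant and 227.5 in WT, and was not a member. With 1 library per genotype, nothing here could be checked against replicates and no p-value was computed. The 95% intervals cover counting error only.

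In total 1974 models were higher and 1476 lower in all 3 HMT mutants than in both *hrde-1* and WT, which is 14.5% and 10.8% of the measured models. These counts describe the rule and carry no test. A random order of the libraries alone would place some models on each side, and that share was not estimated. Most gaps were small, with a median of 0.16 among the higher and 0.09 among the lower members. A gap of at least 1 was found for 40 higher and 5 lower members, 0.294% and 0.0367% of the measured models. Reads were then estimated from RPKM and coding length, and the ratio of the nearest pair of libraries was given an exact Clopper-Pearson interval. This interval excluded 1 for 66 higher models of 65 genes and for 38 lower models of 38 genes, or 0.494% and 0.284% of the 13357 models with a length. After each library was rescaled to a median ratio of 1, the same count was 52 higher and 76 lower, and 51 and 35 of the models above were among them. The genes described next were separated by this interval unless stated otherwise, and values of the HMT mutants are always in the order *set-32*, double mutant, triple mutant.

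**Figure D1:**
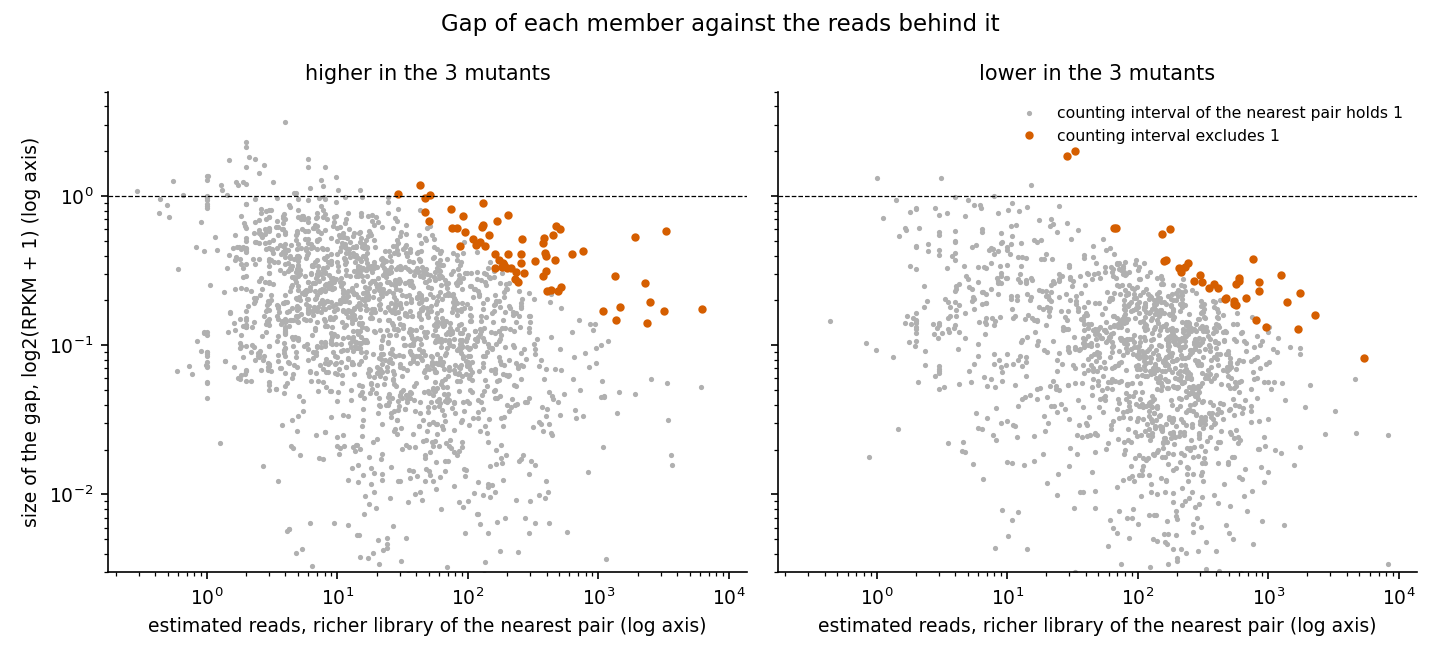
Each point is a member with a length, higher (left panel) or lower (right panel) in the 3 HMT mutants than in *hrde-1* and WT. The x axis gives the estimated reads in the richer library of the nearest pair and the y axis the size of the gap in log2(RPKM + 1), both on log axes, with a dashed line at a gap of 1. The 66 higher and 38 lower members whose counting interval excludes 1 (orange) lie to the right of most others of the same gap, and the largest gaps on the left stand on few reads.

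The lists of C-type lectins and innate immunity had larger shares of higher members than all measured models. C-type lectins, secreted proteins with a sugar-binding fold that often respond to microbes in worms, had 31 of 85 measured models higher and 2 lower, 36.5% and 2.35% against 14.5% and 10.8% of all measured models. Their median difference between the mean of the HMT mutants and the mean of *hrde-1* and WT was 0.44 on the log2 scale, against 0.02 over all measured models, and 5 of them were separated by the interval. *clec-85* (IV, 2850886 to 2855456, WBcel235) had 59.4, 43.1 and 60.7 RPKM in the HMT mutants, against 24.0 in *hrde-1* and 22.9 in WT. Its nearest pair had a ratio of 1.79 (1.20 to 2.78). Its neighbour *clec-84*, whose start lies 8424 bp away, had 42.2, 49.9 and 62.7 RPKM in the HMT mutants, against 27.2 in *hrde-1* and 22.8 in WT, and its interval (0.95 to 2.65) held 1. The most abundant of the separated lectins was *clec-63* (II, 12895638 to 12897446), with 694.4, 1016 and 1134 RPKM in the HMT mutants, against 473.7 in *hrde-1* and 480.1 in WT. Its nearest-pair ratio of 1.45 (1.35 to 1.55) was one of the most narrowly bounded, with at least 1051 reads behind each library. A second adjacent pair was *clec-49* and *clec-50* on chromosome V, 3438 bp apart. *clec-50* had 288.9, 252.7 and 267.7 RPKM in the HMT mutants, against 143.4 in *hrde-1* and 166.4 in WT, a ratio of 1.52 (1.33 to 1.74). For *clec-49* the values were 38.5, 40.7 and 41.2 RPKM in the HMT mutants, against 22.5 in *hrde-1* and 24.8 in WT. In both pairs the 3 HMT mutants lay above both other libraries with no overlap, which is what the rule asks.

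The innate immunity list held 29 higher (29.6%) and 2 lower (2.04%) models of 98, with a median difference of 0.35. Relative to the 5-library mean, the median log2 level of the list was -0.07, 0.29 and 0.17 in the HMT mutants, -0.38 in *hrde-1* and -0.10 in WT. By this level *set-32* stood near WT, and *hrde-1* was lowest. Of the higher models of this list, 7 were separated by the interval. Lysozymes, which cleave bacterial cell walls, were among them. *lys-1* had 265.5, 243.8 and 280.4 RPKM in the HMT mutants, against 147.3 in *hrde-1* and 166.3 in WT, a nearest-pair ratio of 1.47 (1.27 to 1.69). *lys-8* had 201.6, 216.1 and 256.8 RPKM in the HMT mutants, against 139.8 in *hrde-1* and 135.5 in WT. The values of *lys-7* were 301.6, 225.1 and 247.4 RPKM in the HMT mutants, against 101.8 in *hrde-1* and 170.9 in WT, so that *hrde-1* stood lowest and WT was the nearer library. Saposin-like proteins, some of which permeabilize bacterial membranes, had 2 such members. *spp-14* (X, 7725979 to 7726383) had 813.3, 737.0 and 877.8 RPKM in the HMT mutants, against 467.1 in *hrde-1* and 476.8 in WT, a ratio of 1.55 (1.34 to 1.78). *spp-5* was closer, with 735.8, 615.3 and 719.6 RPKM in the HMT mutants, against 484.7 in *hrde-1* and 493.6 in WT. *dod-23*, a gene first listed downstream of the FOXO factor DAF-16, varied among the HMT mutants themselves, at 148.4, 409.99 and 269.98 RPKM, against 91.9 in *hrde-1* and 81.6 in WT. Caenacin genes, which encode small antimicrobial peptides, formed a run of 3 members on chromosome V, *cnc-4*, *cnc-3* and *cnc-2*, none of them separated by the interval. Of these, *cnc-3* had 27.4, 22.2 and 25.9 RPKM in the HMT mutants, against 10.7 in *hrde-1* and 8.99 in WT, but 4.8 to 18.6 reads stood behind these values and the interval (0.61 to 7.03) held 1.

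**Figure D2:**
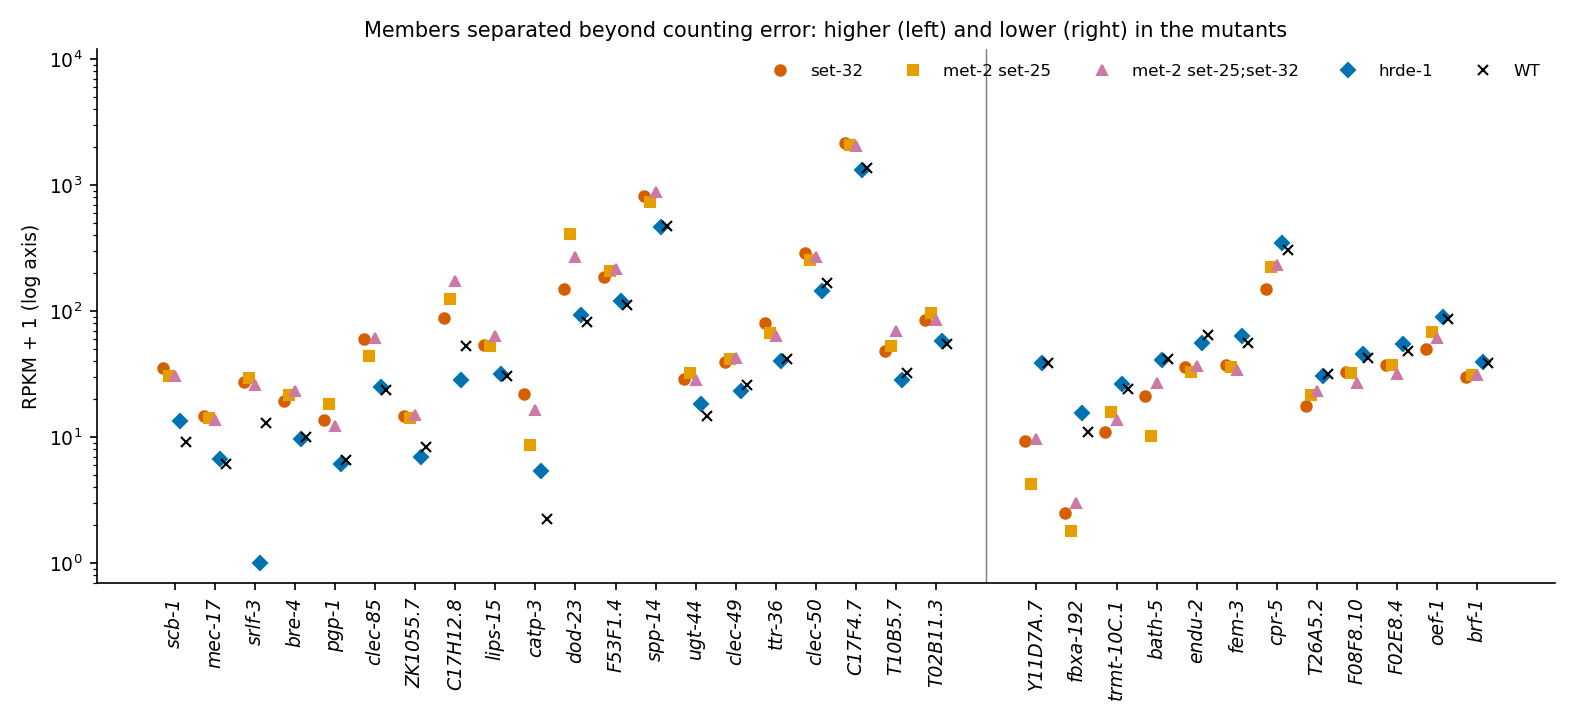
RPKM + 1 on a log axis for the 20 higher and the 12 lower genes with the widest gaps among those separated by the counting interval, with 1 point per library (HMT mutants orange, yellow and pink, then *hrde-1* blue and WT black crosses). *scb-1* sits at 29.5 to 34.2 RPKM in the HMT mutants and at 12.4 and 8.10 RPKM in *hrde-1* and WT, and Y11D7A.7 at 3.23 to 8.64 RPKM against 37.9 RPKM in both.

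The widest gap among the separated higher members belonged to *scb-1* (V, 11118766 to 11119705), a gene known for altering sensitivity to the DNA-damaging drug bleomycin. It had 34.2, 29.8 and 29.5 RPKM in the HMT mutants, against 12.4 in *hrde-1* and 8.10 in WT, a gap of 1.19 and a nearest-pair ratio of 2.38 (1.23 to 5.22). The 3 HMT values lay within 5 RPKM of each other. *srlf-3* was at 26.7, 28.6 and 25.1 RPKM in the HMT mutants, at 0 in *hrde-1* and at 11.9 RPKM in WT. *bre-4* (I, 1621314 to 1628486), a glycosyltransferase that builds the glycolipids bound by *Bacillus thuringiensis* crystal toxin, had 18.5, 20.6 and 22.2 RPKM in the HMT mutants, against 8.67 in *hrde-1* and 8.98 in WT. Its ratio was 2.06 (1.24 to 3.49). *pgp-1* (IV, 12591704 to 12599169), a P-glycoprotein that pumps xenobiotics out of cells, had 12.8, 17.3 and 11.4 RPKM in the HMT mutants, against 5.14 in *hrde-1* and 5.65 in WT, a ratio of 2.01 (1.45 to 2.81). The detoxification list around it had 31 of 175 models higher (17.7%) and 17 lower (9.71%), against 14.5% and 10.8% of all measured models. Its median difference of 0.05 was near that of all measured models. *ugt-44*, a UDP-glucuronosyltransferase gene, was the other separated member of that list, with 27.9, 31.2 and 27.2 RPKM in the HMT mutants, against 17.4 in *hrde-1* and 13.6 in WT.

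The protease list had 9 of 39 measured models higher (23.1%) and 1 lower (2.56%), against 14.5% and 10.8% of all measured models. *cpr-4*, a cathepsin B-like protease, had 336.95, 301.6 and 365.4 RPKM in the HMT mutants, against 204.98 in *hrde-1* and 226.6 in WT, a ratio of 1.33 (1.19 to 1.50). *cpr-5*, of the same family, lay on the other side, with 148.9, 223.3 and 233.6 RPKM in the HMT mutants, against 344.8 in *hrde-1* and 304.5 in WT, a ratio of 0.77 (0.69 to 0.85). *cpr-5* was the only lower model of the list. *cpl-1*, a cathepsin L gene, had 1621, 1461 and 1701 RPKM in the HMT mutants, against 1202 in *hrde-1* and 1300 in WT, and its ratio of 1.12 (1.07 to 1.18) shows how small a difference the deepest models resolve. *lips-15*, a lipase-related gene, had 52.6, 51.9 and 62.3 RPKM in the HMT mutants, against 30.7 in *hrde-1* and 29.7 in WT. *pod-2*, the acetyl-CoA carboxylase that starts fatty acid synthesis, had 109.2, 104.7 and 121.3 RPKM in the HMT mutants, against 79.5 in *hrde-1* and 85.5 in WT. C17F4.7 was the most abundant of the 20 separated genes with the widest gaps, at 2151, 2074 and 2036 RPKM in the HMT mutants, against 1313 in *hrde-1* and 1360 in WT, a ratio of 1.50 (1.41 to 1.59).

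Few neuronal genes were separated by the interval. Of 97 models on the neuron list, 25 were higher (25.8%) and 3 lower (3.09%), against 14.5% and 10.8% of all measured models. *egl-3* was the only separated one of the list. *mec-17*, the tubulin acetyltransferase of touch receptor neurons, had 13.8, 13.2 and 12.8 RPKM in the HMT mutants, against 5.71 in *hrde-1* and 5.11 in WT, and its ratio of 2.25 had an interval that began at 1.00 and held 1 after rescaling (0.98 to 5.91). *dlk-1*, a kinase needed for axon regeneration, had 25.2, 21.7 and 25.1 RPKM in the HMT mutants, against 14.1 in *hrde-1* and 15.1 in WT, a ratio of 1.44 (1.10 to 1.88). *egl-3*, the convertase that cuts neuropeptide precursors, had 37.6, 39.3 and 39.8 RPKM in the HMT mutants, against 23.2 in *hrde-1* and 29.7 in WT. Of 109 neuropeptide models, 27 were higher (24.8%) and 3 lower (2.75%), with a median difference of 0.40 and none separated by the interval. The neuropeptide list takes *flp*, *nlp* and *ins* names, and the neuron list takes *flp* and *nlp* names besides a few other genes. These lists thus share most of their models, and their shares are not independent of each other.

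Cuticle genes gave 5 separated members, all collagens, of which *col-94* was no longer separated after rescaling (0.98 to 1.14), and the list as a whole changed sides with the libraries used. *col-95* had 184.6, 213.8 and 228.3 RPKM in the HMT mutants, against 131.3 in *hrde-1* and 83.3 in WT, a ratio of 1.41 (1.19 to 1.67). *col-160* had 1194, 1151 and 1444 RPKM in the HMT mutants, against 849.96 in *hrde-1* and 959.97 in WT. *col-119* was the most abundant, at 3877, 3319 and 4045 RPKM in the HMT mutants, against 2460 in *hrde-1* and 2939 in WT, a ratio of 1.13 (1.09 to 1.17). Of 144 models on the list, which takes *col*, *dpy*, *rol*, *sqt*, *bli* and *lon* names, 23 were higher (16%) and 3 lower (2.08%), against 14.5% and 10.8% of all measured models. Not every name on the list is a collagen gene, and *dpy-21* is one that is not. The median difference of the list was 0.31 and became -0.10 without the *hrde-1* library, where the list stood lowest. The muscle list behaved likewise, with a median of 0.20 over 17 models and -0.021 without *hrde-1*.

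Germline classes held a larger share of the lower members than of the measured models, 12.9% against 5.06% for the oocyte class and 13.1% against 5.74% for the intrinsic class, as the deposited table marks them. By class, 191 of 689 oocyte-class models (27.7%) and 194 of 782 intrinsic-class models (24.8%) were lower, against 10.8% of all measured models, while 10 and 24 of them were higher. The median differences of both classes were -0.19 and -0.15. Of the 38 lower models separated by the interval, 18 were of the oocyte class, 3 of the intrinsic class and none of the sperm class. All 66 separated higher models were in no germline class, as were 85.2% of all measured models. They include *perm-4* of the oocyte list, which is separate from the deposited class. It had 846.0, 711.6 and 812.5 RPKM in the HMT mutants, against 627.7 in *hrde-1* and 517.3 in WT. Its ratio was 1.13 (1.05 to 1.23) and no longer separated after rescaling. The oocyte and intrinsic classes had lower summed RPKM in *set-32* and the triple mutant than in the other 3 libraries. The oocyte class summed to 40273, 47576 and 41234 RPKM in the HMT mutants, against 49411 in *hrde-1* and 48786 in WT. The part of germline amount in the lower members was not tested.

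Y11D7A.7 and *fbxa-192* stood apart in size among the separated lower members. Y11D7A.7 (IV, 9249519 to 9250459), of the oocyte class, had 8.31, 3.23 and 8.64 RPKM in the HMT mutants, against 37.9 RPKM in both *hrde-1* and WT. The gap was -2.01 and the nearest-pair ratio 0.23 (0.11 to 0.45). *fbxa-192* (V, 17640672 to 17650527), an F-box gene of the oocyte class, had 1.50, 0.80 and 2.01 RPKM in the HMT mutants, against 14.7 in *hrde-1* and 9.95 in WT, a ratio of 0.20 (0.07 to 0.47). The F-box, MATH and BTB list to which it belongs, genes for adaptors of ubiquitin ligases, had 22 higher (8.53%) and 25 lower (9.69%) models of 258. Over all measured models these shares were 14.5% and 10.8%, and the median difference of the list was -0.02. *bath-5* of the same list had 20.2, 9.24 and 25.8 RPKM in the HMT mutants, against 39.9 in *hrde-1* and 40.8 in WT, with the double mutant lowest.

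Next in size were *trmt-10C.1*, *bath-5*, *endu-2* and *fem-3*. *fem-3* (IV, 9104966 to 9107607), which directs male fate and sperm production in the germline and is marked as GRH (heterochromatin that depends on germline nuclear RNAi), had 36.7, 35.2 and 33.4 RPKM in the HMT mutants, against 62.2 in *hrde-1* and 54.6 in WT. Its nearest-pair ratio was 0.67 (0.51 to 0.87), and the 3 HMT values lay within 4 RPKM. *trmt-10C.1*, of a tRNA methyltransferase family, had 10.04, 14.9 and 12.7 RPKM in the HMT mutants, against 25.5 in *hrde-1* and 23.3 in WT. *endu-2*, an EndoU-type ribonuclease, had 35.3, 32.1 and 35.7 RPKM in the HMT mutants, against 54.9 in *hrde-1* and 63.2 in WT.

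Several separated lower members with small gaps act on chromosomes, in cell division or in nuclear export, a grouping made after their values were seen. *top-2*, topoisomerase II, had 120.7, 132.2 and 132.7 RPKM in the HMT mutants, against 157.1 in *hrde-1* and 155.3 in WT, a ratio of 0.85 (0.80 to 0.91). *smc-4*, of the condensin complex, had 55.5, 64.7 and 56.1 RPKM in the HMT mutants, against 77.96 in *hrde-1* and 76.1 in WT. *him-1*, the cohesin SMC1 subunit, had 63.5, 72.4 and 69.4 RPKM in the HMT mutants, against 87.5 in *hrde-1* and 89.7 in WT. In each of these the double mutant or the triple mutant was the library nearest to *hrde-1* and WT. *air-1*, the Aurora A kinase, had 146.9, 170.03 and 157.5 RPKM in the HMT mutants, against 201.3 in *hrde-1* and 206.6 in WT. *xpo-1*, the nuclear exportin, had 79.0, 89.6 and 87.8 RPKM in the HMT mutants, against 112.6 in *hrde-1* and 107.8 in WT. *cyb-3*, a B-type cyclin, differed least of these, at 552.5, 553.4 and 517.5 RPKM in the HMT mutants, against 667.5 in *hrde-1* and 605.5 in WT, a ratio of 0.91 (0.85 to 0.98). Of these genes, *top-2* is of the oocyte class and *smc-4* of the intrinsic class, while *him-1*, *air-1*, *xpo-1* and *cyb-3* are in no germline class. The list of DNA damage and apoptosis genes had 10 of 17 measured models lower (58.8%, against 10.8% of all measured models) and none higher. Its median difference was -0.30, but none was separated by the interval, and the part of the germline classes was not tested. Its member *mre-11*, a nuclease of double-strand break repair, had 53.9, 59.6 and 48.2 RPKM in the HMT mutants, against 65.3 in *hrde-1* and 73.2 in WT (interval 0.77 to 1.09).

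Among genes of small-RNA pathways and of heterochromatin, more were lower than higher members. The lower heterochromatin genes include those mutated in these strains. Of 46 models of small-RNA pathways other than nuclear RNAi, 14 were lower (30.4%) and 3 higher (6.52%), with a median difference of -0.19. Of all measured models 10.8% were lower and 14.5% higher, and of the oocyte and intrinsic classes 27.7% and 24.8% were lower. *wago-1*, an Argonaute of the germline secondary small-RNA pathway, was the separated one, at 284.6, 296.4 and 286.2 RPKM in the HMT mutants, against 360.9 in *hrde-1* and 331.1 in WT, a ratio of 0.90 (0.84 to 0.95). *deps-1*, a P granule gene that is on no list here, had 95.6, 105.5 and 95.1 RPKM in the HMT mutants, against 121.8 in *hrde-1* and 121.2 in WT. Its neighbour *acs-13*, an acyl-CoA synthetase gene whose start lies 4571 bp away on chromosome I, had 215.5, 234.6 and 201.5 RPKM in the HMT mutants, against 293.97 in *hrde-1* and 268.6 in WT. Of 13 nuclear RNAi models 1 (7.69%), *nrde-1*, was lower and none higher, a smaller lower share than that of all measured models. The interval of *nrde-1* (0.75 to 1.21) held 1. Of 25 models of histone methyltransferases and heterochromatin readers, 5 were lower (20%) and none higher. These were *met-2*, *set-25* and *set-32*, which are the genes mutated in these strains, and *set-17* and *lin-65*. The lower share of this list thus rests mainly on the mutated genes. The intervals of *set-17* (0.68 to 1.28) and *lin-65* (0.75 to 1.13) held 1. Of the lower models of this list *met-2* was the separated one, and 2 of the 3 HMT mutants carry its deletion. The *set-32* library does not, and there *met-2* had a ratio of 0.81 (0.69 to 0.95) to *hrde-1*, its nearest library.

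**Figure D3:**
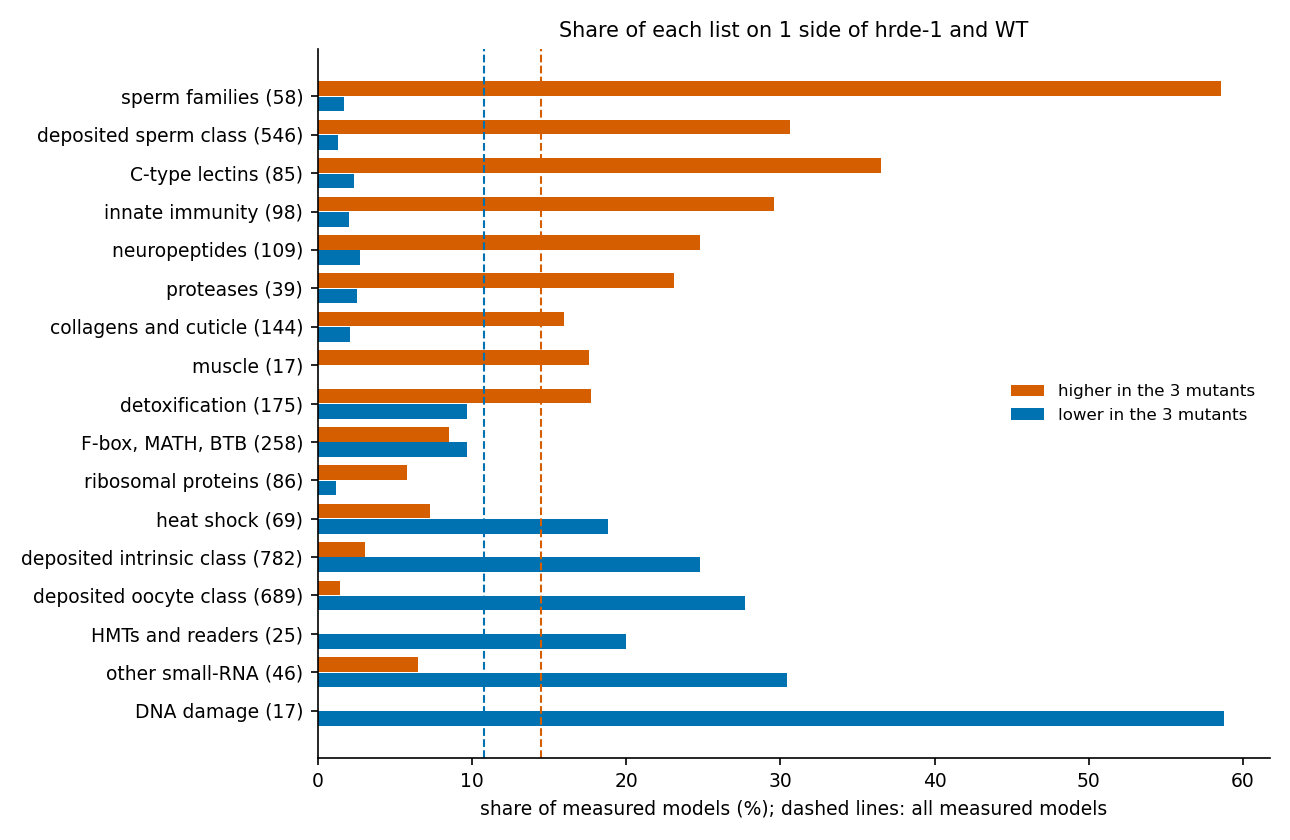
Share of measured models (x axis, percent) that were higher (orange) or lower (blue) in all 3 HMT mutants than in *hrde-1* and WT, for 17 lists or deposited classes with the number of measured models in brackets. Dashed lines mark all measured models (14.5% and 10.8%), and the sperm families (58.6% higher) and the DNA damage list (58.8% lower) are farthest from them.

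Sperm genes gave the highest share of higher members, without a single one separated by the interval. The list of sperm families, major sperm proteins and other sperm-specific genes, had 34 of 58 models higher (58.6%) and 1 lower (1.72%). The deposited sperm class had 167 of 546 higher (30.6%) and 7 lower (1.28%), against 14.5% and 10.8% of all measured models. The median differences of the families and the class were 0.63 and 0.42. Several of these families have near-identical copies whose reads cannot be assigned to 1 gene. The summed RPKM of the sperm families was 4201, 2314 and 2069 in the HMT mutants, against 1539 in *hrde-1* and 1910 in WT, so that *set-32* stood far above the other 4 libraries and the triple mutant near WT. The median difference of the families was 0.35 without *set-32*. *ssp-35* is an example, with 40.6, 17.6 and 16.5 RPKM in the HMT mutants, against 7.77 in *hrde-1* and 5.79 in WT (interval 0.64 to 6.55).

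**Figure D4:**
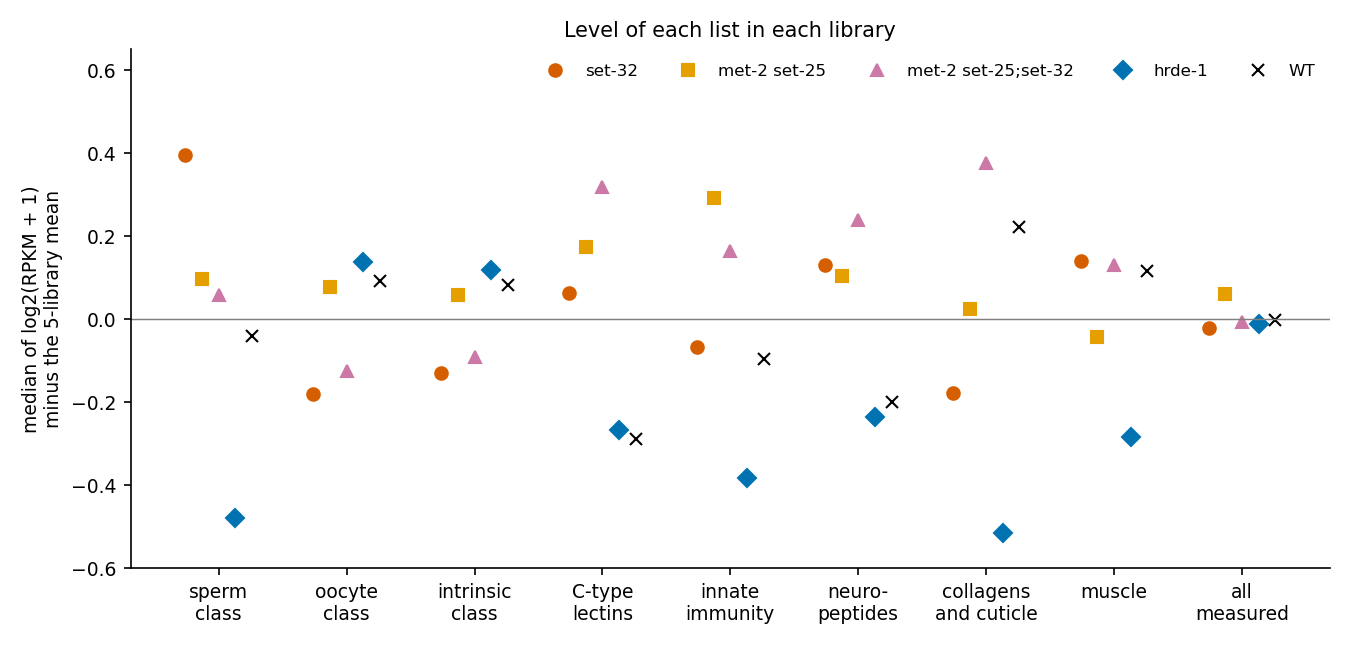
Median over the measured models of each list of log2(RPKM + 1) minus the mean of the 5 libraries (y axis), with 1 point per library. For C-type lectins and neuropeptides the 3 HMT mutants lie above *hrde-1* and WT, for the sperm class *set-32* is highest and *hrde-1* lowest, and for the cuticle list (collagens and cuticle) and muscle WT lies among the HMT mutants.

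Of 71 measured models marked as GRTS (transcriptionally silenced by germline nuclear RNAi), 4 were higher (5.63%) and 6 lower (8.45%), against 14.5% and 10.8% of all measured models. Of 122 GRH models 2 were higher (1.64%) and 21 lower (17.2%), a larger lower share than that of all measured models, and *fem-3* was the separated one. The authors drew both lists from *hrde-1* mutants, and the *hrde-1* library stood alone. The GRTS models summed to 575.2, 595.9 and 673.2 RPKM in the HMT mutants, against 1878 in *hrde-1* and 548.8 in WT, and their median difference of -0.48 became 0.057 without *hrde-1*.

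The 3 HMT mutants were not equally often the nearest library on the lower side. The double mutant library also stood highest over the measured models, with a median ratio to the 5-library mean of 1.03. This ratio was 0.968 to 0.981 in the other libraries, and the part of this offset in the order was not tested. Of the 1476 lower members, 56.8% had the double mutant as the library nearest to *hrde-1* and WT, 20.3% *set-32* and 22.9% the triple mutant. Farthest was *set-32* for 48.0%, the triple mutant for 34.6% and the double mutant for 17.4%. On the higher side the nearest library was *set-32* for 34.2%, the double mutant for 36.4% and the triple mutant for 29.4%. Among the 66 separated higher members, the interval of *set-32* over the double mutant held 1 in 40, lay above 1 in 18 and below 1 in 8. Among the 38 separated lower members it held 1 in 26, lay above 1 in 3 and below 1 in 9. The triple mutant was above the double mutant beyond counting error in 25 of the 66 higher members and below it in 2. The interval of *hrde-1* over WT held 1 in 54 of the 66 higher and in 31 of the 38 lower members. The rule already places *hrde-1* and WT on the same side of the HMT mutants. These interval counts were not taken over all measured models, so they only describe the members.

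The members were unevenly spread over the chromosomes. Chromosome X held 18.5% of the higher and 5.89% of the lower members, against 13.6% of measured models. Of its 1855 measured models, 19.7% were higher and 4.69% lower. On the autosomes, models on the arms, outside the central 50% of a chromosome, were higher in 16.3% and lower in 8.35% of 4469 cases, and models in the centre in 12.1% and 14.1% of 7033 cases. The part of the germline classes in this spread was not tested. Adjacent pairs were few. Among members with a gap of at least 0.58, 5 higher pairs and 1 lower pair had starts within 10 kb.

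The largest gaps of all stood on the fewest reads. Among the 15 higher members with the widest gaps (1.36 to 3.16), 10 were at 0 in both *hrde-1* and WT, 13 had under 10 estimated reads in every library and none was separated by the interval. W02A2.9 led them, at 10.4, 13.9 and 7.95 RPKM in the HMT mutants and 0 in *hrde-1* and WT. These values stood for 4.0, 5.0 and 4.0 reads. *his-70*, a gene for a variant of histone H3, had 3.57, 2.54 and 2.72 RPKM in the HMT mutants and 0 in *hrde-1* and WT, from about 2 to 3 reads. *nlp-34*, an antimicrobial peptide gene, had 6.89, 7.37 and 9.20 RPKM in the HMT mutants, against 0 in *hrde-1* and 1.57 in WT. For W02A2.9, *his-70* and *nlp-34* the interval of the nearest pair held 1, and the other pairs of their libraries were not given an interval. Among the 15 lower members with the widest gaps, Y11D7A.7 and *fbxa-192* were separated by the interval. K09E3.4 (-1.33) and T22H2.4 (-1.32) followed, both at 0 in every HMT mutant and not separated, and then *sdz-9*, which had 1.93, 2.06 and 2.06 RPKM in the HMT mutants, against 8.50 in *hrde-1* and 5.99 in WT (interval 0.11 to 1.13).

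The members nearest to the limits of the rule are given as a description. C17H11.5 (gap 1.01) and F45E1.2 (1.00) were the higher members just past a gap of 1, and *ssp-35* (0.99) and *cnc-3* (0.99) just short of it. On the lower side *sdz-9* (-1.19) and T22H2.4 (-1.32) lay past it, and Y5H2B.3 and R11D1.13 (-0.99) short of it. For the minimum of 1 RPKM, C35E7.4 and *txt-8* averaged 1.00 RPKM just inside, and *rsef-1* and *daf-38* averaged 0.99 and 0.98 RPKM just outside.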

How the data were processed

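The authors sequenced poly(A) RNA of 5 libraries and aligned the reads to an older genome release (WS190). Bowtie 0.12.7 is named in the submitters' processing notes. They deposited RPKM values per gene model, rounded to hundredths, with germline classes and the GRTS and GRH target lists from their earlier work. The values are normalized and not counts, so no count test was run, and each genotype had 1 library. The columns were matched to genotypes through the study's library list. Of 20911 models, 20315 (97.1%) matched a gene of the WBcel235 annotation (Ensembl), which gave the symbols and all coordinates printed here. Whether counting used strand is not given in the sources used here. Among the models separated by the interval, 20 of 66 higher ones and 12 of 38 lower ones overlap another gene, among them *scb-1*, *mec-17*, *bre-4*, *clec-85* and *endu-2*, so that their reads may be shared.

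Gaps were computed on log2(RPKM + 1) among models that averaged 1 RPKM or more. Low RPKM values move in steps of 1 read, and the step of a 1-kb model was estimated as 0.454, 0.485 and 0.346 RPKM in the HMT mutants (*set-32*, double, triple), 0.557 RPKM in *hrde-1* and 0.415 RPKM in WT. Between 46.9% and 50.7% of low values came out whole to within 0.1 (20% would by chance), so read numbers and intervals are approximate. Per the study's methods a read aligned to several loci was shared among them, and the annotation's lengths may differ from the authors'. The part of either was not tested. A value of 0 allows up to 3 reads, which for a 1-kb model is 1.04 RPKM in the triple mutant and 1.67 RPKM in *hrde-1*. Intervals (95%, Clopper-Pearson, exact, scipy 1.17.1) treat reads as independent. The steps were tested on simulated data.

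The members, the lists and the rule were chosen with earlier results of these data known. Genes named were the 15 widest gaps in each direction, up to 4 members of each list, the targeted genes, the models around a gap of 1 and adjacent members. Genes named because their counting interval excludes 1, and the genes grouped by function among them, were chosen after their values were seen. Of 24 lists, those named next are not described further. Of all measured models 14.5% were higher and 10.8% lower. The germline list had 1 higher and 3 lower of 18 (5.56% and 16.7%), oocyte 2 and 6 of 20 (10% and 30%). Intestine had 1 and 0 of 16 (6.25% and 0%), chemoreceptors 13 and 2 of 38 (34.2% and 5.26%). Heat shock had 5 and 13 of 69 (7.25% and 18.8%), histones 18 and 1 of 78 (23.1% and 1.28%). Ribosomal proteins had 5 and 1 of 86 (5.81% and 1.16%), vitellogenins 0 and 0 of 8. Lipid metabolism had 14 and 5 of 79 (17.7% and 6.33%), metal handling 1 and 1 of 13 (7.69% for both). Several of these lists lay as far from the shares of all measured models as lists described above. Alternatives were other pseudocounts, filters, scaling, a floor for values of 0, 1 model per gene and leaving out each library. Models with identical values (1265 of 17933 not at 0 throughout) share reads.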

Additional observations from a re-analysis of the deposited data

How the results depend on the processing

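With all 5 libraries kept, the number of models with a gap of at least 1 moved with how low values were treated. It was 108 higher and 23 lower with a pseudocount of 0.1 RPKM, 1 and 2 with a pseudocount of 5 RPKM, and 10 and 2 with a mean of at least 5 RPKM. With no filter it was 14 on the lower side, and with values of 0 set to 3 reads it was 14 on the higher side. The count of all higher members was 1261 with a mean of at least 5 RPKM. The separated lower models were 76 after rescaling. The other alternatives that keep all 5 libraries left each count within 1.5 times its value.

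Leaving out 1 library loosens the rule, since fewer libraries have to be separated. The counts then ranged from 2646 to 4363 higher and from 1839 to 3686 lower members, from 68 to 370 and from 23 to 110 with a gap of at least 1, and from 85 to 343 and from 49 to 379 separated by the interval. The highest counts came without WT, except for the 379 lower separated models without the double mutant. No paired analysis was possible because each genotype had 1 library.

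With values of 0 set to 3 reads, the sides overlapped for 15 of the 77 named models tried. The margin became -0.24 for W02A2.9, -0.74 for Y48G9A.7, -1.07 for F52E10.4, -0.53 for *his-70*, -0.50 for R07E5.5, -1.38 for F13E9.12, -0.38 for *nlp-34*, -0.64 for *sdz-6*, -0.36 for Y73F8A.14, -1.72 for *nlp-82* and -1.40 for B0310.6, all higher as deposited. It became 0.23 for F59B10.6, 0.58 for R102.1, 1.33 for T22H2.4 and 0.11 for K09E3.4, all lower as deposited. No other alternative turned a gap of these 77. The list medians that turned without *hrde-1* were those of the cuticle list (-0.10, and up to 0.65 without WT), muscle (-0.021, up to 0.32 without WT) and GRTS (0.057, down to -1.40 without WT), in alternatives added after the data were seen. No model was separated by the interval with under 28.9 estimated reads in the richer library of its nearest pair.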

Other observations

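Some members differed as much among the HMT mutants as between them and the other libraries. *plk-3*, a polo-like kinase gene, had 109.7, 5.33 and 109.9 RPKM in *set-32*, the double and the triple mutant, against 169.6 in *hrde-1* and 134.0 in WT, so that the double mutant alone stood far lower although the triple mutant carries the same mutations. *catp-3*, of the cation-transporting ATPases, had 20.9, 7.66 and 15.5 RPKM in these mutants, against 4.38 in *hrde-1* and 1.26 in WT. C17H12.8 had 87.98, 124.0 and 171.7 RPKM in the HMT mutants, against 27.7 in *hrde-1* and 51.8 in WT.

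The sizes of the separated models differed by direction. Their median coding length was 922.5 bases for the higher and 1940 bases for the lower members, against 1092 bases for all measured models. Longer models collect more reads at the same RPKM, and the part of length in this was not tested.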
